A study of Homo sapiens with 12 samples.

Results

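The 59 genes described here encode the machinery of mitosis: cyclins and CDK1, the polo and Aurora kinases, the spindle checkpoint, kinetochore and centromere proteins, the chromosomal passenger complex, mitotic kinesins, spindle and midzone proteins, and the factors that hold sister chromatids together and release them. They were chosen by symbol, and all 59 were found in the 16848 genes listed for clone 2 and in the 15612 listed for clone 1, of which 15582 were in both tables. The study compared dasatinib-resistant with dasatinib-sensitive RCH-ACV cells, an established human B-cell precursor ALL line. Resistant sublines of clone 2 and clone 1 had been grown in increasing dasatinib, an inhibitor of ABL and SRC family kinases, to at most 1 µM, and sensitive sublines of clone 2 and clone 1 were kept in vehicle (0.1% DMSO). Each of these 4 groups had 3 libraries, for which RNA was taken from the cultures on different occasions, and 12 libraries were made in all. Each resistant subline is 1 line selected over months of culture, and the drug was present in resistant cells alone, so selection and exposure cannot be told apart.

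The value used throughout is the authors' mean normalized count of a gene, averaged over the 6 libraries of a clone with resistant and sensitive libraries together. Such a mean shows how strongly a gene was expressed in a clone's cultures and cannot show a difference between resistant and sensitive cells. No value per library was used here, so no mean carries an SD or a test, and the depth of single libraries is unknown. The means sum to 24561485 in clone 2 and 19108037 in clone 1. The tables were normalized separately and the sample titles carry a different letter code for each clone (B for clone 2, A for clone 1), so a gap between the clones and a gap between 2 processing sets cannot be told apart. All 15 B-cell precursor markers examined were listed in both tables, with a median mean normalized count of 4898 in clone 2 and 3914 in clone 1, and the lowest was MME (CD10), at 67.0 and 67.7. None of 5 T cell and 4 erythroid markers was listed in either table, and of 5 myeloid markers CSF1R stood at 768 in clone 2 and 615 in clone 1 while MPO, CD14 and LYZ were at most 17.1.

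Mitotic genes are transcribed mainly in G2 and M phase, so in an unsynchronised culture their transcript levels depend on the share of cells in those phases as well as on the level per cell. In bulk RNA these cannot be told apart. Entry into mitosis is driven by CDK1 with cyclin B, the checkpoint holds anaphase back until every kinetochore is attached, and the anaphase-promoting complex (APC/C) then marks securin and cyclin B for destruction. Much of this program shares a promoter design. In G0 and G1 the DREAM complex represses it through the cell cycle genes homology region (CHR), and later B-MYB with the MuvB core and FOXM1 activate it through the same element, together with NF-Y at CCAAT boxes.

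The letters of these elements were frequent in the promoters of the mitotic genes. RefSeq windows of 300 bases (250 before to 50 after a transcription start, build GRCh38.p14) were found for 50 of the 59 genes, 2 of them under a newer symbol, in 64 windows. A CHR motif, searched on both strands as TTTGAA and in its second common form TTCGAA, was present in 36 of these 50 genes (72.0%), against 19.5% of the 27305 genes with a window and 17.5% of the protein-coding ones. A CCAAT box, searched as CCAAT on both strands, was in 41 of the 50 (82.0%), against 39.7% of all genes and 42.1% of protein-coding genes. Both motifs occurred in the same window in 30 genes (60%), against 7.85% of all genes, and 24 genes (48.0%) had 2 or more CCAAT boxes in a window, against 12.9%. E2F-like letters (searched on both strands as TTCCCGC, as well as in the form TTGGCGC and in the form TTCGCGC) were in 14 of the 50 genes (28.0%), against 13.1% of all genes and 17.7% of protein-coding genes. These are counts of letters, windows of 1 gene can overlap, CHR and CCAAT matches can share a letter, and a match is no evidence that a factor was bound in these cells.

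Many of the CHR matches lay near the start, before it and after it. Of 52 matches in the windows of these genes, 26 began 60 to 1 bases before a start. In the first 25 bases after it there were 14.1 matches per 100 windows, against 1.44 over all windows. In the next 25 bases there were 7.81, against 1.02. In 23 of the 50 genes (46.0%) a CHR motif began 60 to 1 bases before a start, where 3.99% of all genes and 3.45% of protein-coding genes had one. The 26 matches in that stretch had a median distance of 26.5 bases from the start, and 22 were counted on the strand of the gene. TTCGAA reads the same on both strands and was always counted so, as in KIF22 and CDC25B. No strand share over all genes was counted, so no preference for a strand is read from this. Within the last 80 bases before the start, 14 genes had a CCAAT box upstream of a CHR motif. The smallest distance per window between their first letters ran from 9 to 52 bases, with a median of 29. The length of the stretch itself bounds these distances, and no share over all genes was counted for this pair. The following stretches, which end at the base before the start, are shown because they hold this pair in genes of different roles, with CCAAT boxes (CCAAT, on the other strand read as ATTGG) and CHR motifs (TTTGAA, on the other strand read as TTCAAA) in capitals. CCNB1 is shown beside them as a strongly expressed gene with a CCAAT box and no match to the CHR forms searched (TTTGAA and TTCGAA).
CCNB2 (chr15:59105066-59105145, plus strand): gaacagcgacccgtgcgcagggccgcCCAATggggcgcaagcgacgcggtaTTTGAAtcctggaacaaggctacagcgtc
PLK1 (chr16:23678809-23678888, plus strand): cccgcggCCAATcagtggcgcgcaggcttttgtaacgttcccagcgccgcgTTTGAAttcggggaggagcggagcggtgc
KIF11 (chr10:92593050-92593129, plus strand): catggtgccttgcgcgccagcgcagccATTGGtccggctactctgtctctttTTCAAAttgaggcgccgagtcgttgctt
PRC1 (chr15:90994536-90994615, minus strand): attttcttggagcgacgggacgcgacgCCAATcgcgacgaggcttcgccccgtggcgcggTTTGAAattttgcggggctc
KIF4A (chrX:70290024-70290103, plus strand): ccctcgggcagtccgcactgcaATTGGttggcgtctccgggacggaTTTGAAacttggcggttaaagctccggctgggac
ESPL1 (chr12:53268219-53268298, plus strand): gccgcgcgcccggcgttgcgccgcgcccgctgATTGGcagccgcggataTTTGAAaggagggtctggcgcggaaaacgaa
HMMR (chr5:163460552-163460631, plus strand): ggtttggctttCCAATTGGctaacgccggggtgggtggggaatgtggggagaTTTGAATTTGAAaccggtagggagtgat
CCNB1 (chr5:69167070-69167149, plus strand): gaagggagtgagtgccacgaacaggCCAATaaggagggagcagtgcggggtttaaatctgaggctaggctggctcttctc

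In CCNB2 (cyclin B2), the CHR motif began 29 bases and the nearest CCAAT box 54 bases before the start, and further boxes lay 87, 120 and 244 bases before it. PLK1 had its CHR motif at the same distance of 29 bases, and KIF11 at 28 bases with the motif on the opposite strand. HMMR held 2 adjoining CHR motifs, 28 and 22 bases before the start. The 14 genes with a window and no TTTGAA or TTCGAA match were CCNA2, CCNB1, CDC25A, NEK2, SPC24, CENPE, CENPI, CENPK, AURKB, KIF2C, KIF20A, CKAP2, SGOL2 and PTTG1, and 10 of them had a CCAAT box. Other forms of the CHR were not searched, so these genes may still hold one. No window was listed for AURKA, BUB3, TTK, CENPH, CENPM, BIRC5, TPX2, UBE2C and FOXM1. Genes with a CHR match had a median of 915 counts per kilobase of coding length in clone 2 and 791 in clone 1, near those without one (994 and 778).

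**Figure D1:**
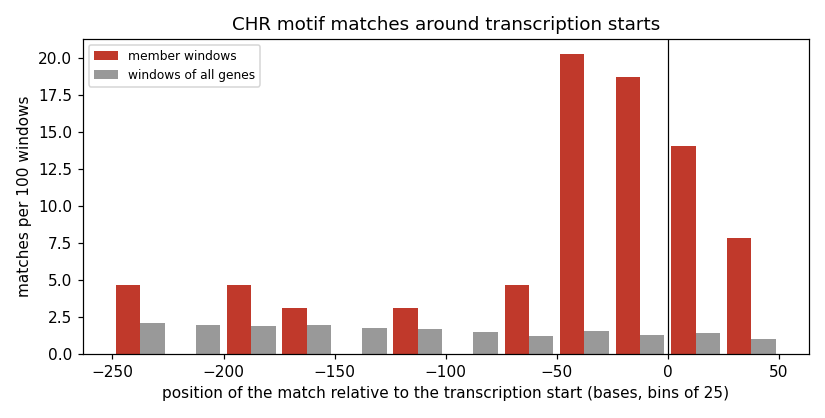
CHR motif matches per 100 promoter windows (y axis) by position relative to the transcription start (x axis, bins of 25 bases), for the 64 windows of the mitotic genes (red) and all 35116 windows (grey). The red bars are highest from 50 to 25 bases before the start (20.3 matches per 100 windows) and in the next bin (18.8), where all windows have 1.53 and 1.27. After the start the red bars are at 14.1 and 7.81, where all windows have 1.44 and 1.02.

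Most of these genes were expressed above the median gene of their table, with or without a correction for length. Their median mean normalized count was 1963 in clone 2 and 1559 in clone 1, at the 82.7th and 81.6th percentile of all genes in the tables (median gene 442 and 406). In clone 2, 56 of the 59 lay above the median gene and 41 above the 75th percentile, and in clone 1, 55 and 36. The 3 genes below the median in clone 2 were CDC25C, SPC24 and CENPI, and in clone 1 CENPA joined them. The summed means of all 59 made up 0.618% of the clone 2 total and 0.629% of the clone 1 total. Longer transcripts yield more reads, so the levels of different genes are ranked below per kilobase of coding length (GENCODE 29, longest coding sequence of a gene) and, where the order changes, also per kilobase of whole transcript. On that scale the median was 1088 in clone 2 and 847 in clone 1, against 371 and 331 over all genes with a coding length. Per kilobase 50 of the 59 lay above the median gene and 30 above the 75th percentile in clone 2, and in clone 1, 47 and 26.

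The 5 genes highest per kilobase of coding length, by the mean of their ranks in the clones, had coding sequences of 495 to 984 bases. BUB3, which recruits BUB1 and BUBR1 to kinetochores, stood first with 7529 in clone 2 and 9103 in clone 1. BIRC5 (survivin, of the passenger complex) followed with 5404 in clone 2 and 4320.3 in clone 1, and MAD2L1 (MAD2, which inhibits CDC20 at the checkpoint) with 4279 in clone 2 and 3528 in clone 1. CDK1, the mitotic kinase, had 4032 in clone 2 and 3101 in clone 1. These leading genes did not belong to a single complex. PTTG1 (securin, the inhibitor of separase) came next by mean rank, with 3648 in clone 2 and 2755 in clone 1, although NUSAP1 was above it in clone 2. At the other end, per kilobase of coding length, were CENPI (169 in clone 2 and 152 in clone 1), a centromere protein, and CDC25C (195 in clone 2 and 148 in clone 1), a phosphatase that activates CDK1. KIF18A, a kinesin that dampens chromosome movement, CENPE, a kinesin that carries chromosomes to the spindle equator, and TTK (MPS1, the kinase that starts the checkpoint) completed the lowest 5, at 164 to 240.3 across both clones. The order depended on the length used. Per kilobase of whole transcript, BUB3, whose transcript with the longest coding sequence has 7828 bases for a coding length of 984, came to 946 in clone 2 and 1144 in clone 1, and NUSAP1 led with 2988 and 2158. At the low end of that scale, SPC24 (129 in clone 2 and 101 in clone 1) and KIF14 (168 and 134) lay below TTK (205 and 168) and CENPE (224 and 176).

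Among the drivers of mitotic entry, CDK1 and cyclin A2 were the highest per kilobase of coding length, with 2476 in clone 2 and 1944 in clone 1 for CCNA2. CDK1 had a mean normalized count of 3592 in clone 2 and 2763 in clone 1. Per kilobase of whole transcript CCNB1 was above CCNA2 in clone 2 (1403 against 1147) and below it in clone 1 (764 against 901). The CDK1 partner CCNA2 (cyclin A2, of S and G2 phase) had 3209 in clone 2 and 2519.9 in clone 1. Cyclin B, which forms the mitotic kinase proper, was measured as 2 genes. CCNB1 had a mean of 3043 in clone 2 and 1657 in clone 1, and CCNB2 had 1589 in clone 2 and 1065 in clone 1. Per kilobase of coding length CCNB1 exceeded CCNB2 by more in clone 2 (2342 against 1331) than in clone 1 (1276 against 892). The CDC25 phosphatases remove the inhibitory phosphates of CDKs. On the coding scale CDC25A was highest (1269 in clone 2 and 1091 in clone 1), CDC25B had 833 in clone 2 and 745 in clone 1, and CDC25C was lowest, with a mean of only 277 in clone 2 and 210.3 in clone 1.

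PLK1, which acts from mitotic entry to cytokinesis, was the highest per kilobase of coding length of 4 kinases that act on centrosomes and entry, with 1665 in clone 2 and 1249 in clone 1. Its mean was 3011 in clone 2 and 2260.1 in clone 1. AURKA, which matures centrosomes and is activated by TPX2, had 1395 in clone 2 and 936 in clone 1, and its activator TPX2 had 5034 in clone 2 and 3846 in clone 1. Per kilobase of coding length, TPX2 stood above AURKA in both clones (2143 in clone 2 and 1637 in clone 1, against 1154 in clone 2 and 774 in clone 1 for AURKA). PLK4, the trigger of centriole duplication, had a mean of 1692 in clone 2 and 1317 in clone 1, and NEK2, which separates centrosomes, had 601 in clone 2 and 476 in clone 1.

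The checkpoint genes spanned a wide range. BUB3 had a mean of 7409 in clone 2 and 8958 in clone 1 and was the only one of the 59 genes whose uncentred mean was lower in clone 2. BUB1, a kinetochore kinase, had 3861 in clone 2 and 3273 in clone 1. BUB1B (BUBR1, part of the mitotic checkpoint complex) had 3178 in clone 2 and 2671 in clone 1, and MAD2L1 had 2632 in clone 2 and 2169.9 in clone 1. The MAD2, BUBR1 and BUB3 proteins join CDC20 in 1 complex, yet their transcripts per kilobase of coding length differed by severalfold, with BUB1B at 996 in clone 2 and 837 in clone 1. Per kilobase of whole transcript the gaps were smaller and MAD2L1 was the lowest of the 3, with 481 in clone 2 and 397 in clone 1. TTK, upstream of all of them, was the lowest per kilobase, as given above, with a mean of 618 in clone 2 and 504 in clone 1.

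The 12 kinetochore and centromere genes had a median of 853 counts per kilobase of coding length in clone 2 and 649 in clone 1, and a median mean of 836 and 661. The 4 subunits of the NDC80 complex, which binds microtubule ends and is assembled from 1 copy of each, were not equal in transcript level. Per kilobase of coding length SPC25 was highest at 1219.7 in clone 2 and 991 in clone 1, NUF2 had 806 in clone 2 and 606 in clone 1, NDC80 had 643 in clone 2 and 476 in clone 1, and SPC24 was lowest at 504 in clone 2 and 396 in clone 1. Per kilobase of whole transcript SPC24 was again the lowest, with 129 in clone 2 and 101 in clone 1. The other subunits lay closer together on that scale. In clone 2 SPC25 had 605, NDC80 570 and NUF2 570, and in clone 1 they had 492, 422 and 428. CENPA, the histone H3 variant that marks centromeres, had a mean of 531 in clone 2 and 356 in clone 1. Of the inner kinetochore proteins that sit on it, CENPM and CENPN were highest per kilobase of coding length (1577 in clone 2 and 1213 in clone 1 for CENPM, 1484 in clone 2 and 1016 in clone 1 for CENPN). Per kilobase of whole transcript CENPN stood above CENPM, with 1010 against 882 in clone 2 and 692 against 678 in clone 1. Per kilobase of coding length CENPH and CENPK, which share a subcomplex with CENPI and CENPM, had 1044 in clone 2 and 722 in clone 1 and 900.0 in clone 2 and 693 in clone 1, while CENPI was at the low end given above. The large coiled-coil protein CENPF had a mean of 5265 in clone 2 and 4239 in clone 1, and 564 in clone 2 and 454 in clone 1 per kilobase.

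The 4 genes of the chromosomal passenger complex differed in level per kilobase. The complex corrects wrong attachments and later directs cytokinesis. Its kinase AURKB had a mean of 2481 in clone 2 and 1923 in clone 1, its scaffold INCENP 2877 in clone 2 and 2428 in clone 1, survivin (BIRC5) 2675 in clone 2 and 2139 in clone 1, and borealin (CDCA8) 2858 in clone 2 and 2306 in clone 1. Per kilobase of coding length INCENP was the lowest, with 1045 in clone 2 and 882 in clone 1, and BIRC5 the highest, while CDCA8 had 3402 in clone 2 and 2745 in clone 1 and AURKB 2397 in clone 2 and 1858 in clone 1. Per kilobase of whole transcript INCENP was again the lowest but AURKB the highest, with 1979 in clone 2 and 1533 in clone 1.

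The 10 kinesins had a median of 524 counts per kilobase of coding length in clone 2 and 429 in clone 1. KIF22 (Kid, which pushes chromosome arms outwards) was highest per kilobase of coding length, with 2087 in clone 2 and 1637 in clone 1 and a mean of 4164 in clone 2 and 3266 in clone 1. KIF11 (Eg5, which drives the spindle poles apart) had a mean of 3990.2 in clone 2 and 3233 in clone 1. KIF2C (MCAK), which takes microtubule ends apart, had 2366 in clone 2 and 1879 in clone 1. Per kilobase these are the highest of the family after KIF22. KIF15, which can share the work of KIF11, had a mean of 1938 in clone 2 and 1676 in clone 1 and less than KIF11 per kilobase (465 in clone 2 and 403 in clone 1, against 1259.5 in clone 2 and 1021 in clone 1 for KIF11). The kinesins of the spindle midzone and of cytokinesis had means as follows, with KIF20A at 2009 in clone 2 and 1495 in clone 1, KIF20B at 2039 in clone 2 and 1629 in clone 1 and KIF23 at 1676 in clone 2 and 1313 in clone 1. KIF4A, which binds chromosome arms and the midzone, had 1466 in clone 2 and 1128 in clone 1, and KIF14 had 1224 in clone 2 and 972 in clone 1. KIF18A, the lowest of the family per kilobase, had a mean of 593 in clone 2 and 443 in clone 1.

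Among spindle and midzone genes, NUSAP1 (a microtubule binder at chromosomes) was highest per kilobase of coding length, with 3679 in clone 2 and 2657 in clone 1, and its mean was 4867 in clone 2 and 3515 in clone 1. PRC1, which bundles midzone microtubules together with KIF4A, had a mean of 2486 in clone 2 and 1844 in clone 1. ASPM, a spindle pole protein, had 3002 in clone 2 and 2277 in clone 1, and CKAP2 had 2729 in clone 2 and 1961 in clone 1. Per kilobase of coding length ASPM was the lowest of this group, with 288 in clone 2 and 218 in clone 1. ECT2, which activates RHOA at the cell equator, had a mean of 1340.0 in clone 2 and 1021 in clone 1, and ANLN (anillin, a scaffold of the contractile ring) had 1424 in clone 2 and 1174 in clone 1. HMMR, a spindle and hyaluronan binding protein, had 1651 in clone 2 and 1083 in clone 1.

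Among the genes of sister chromatid release, the transcript of the inhibitor securin was higher per kilobase than that of the protease it blocks. Securin (PTTG1) had a mean of 2211 in clone 2 and 1669 in clone 1 and separase (ESPL1), which cuts cohesin, had 1963 in clone 2 and 1559 in clone 1. Per kilobase of coding length this was 3648 in clone 2 and 2755 in clone 1 for PTTG1, against 309 in clone 2 and 245 in clone 1 for ESPL1. PTTG1 has closely similar relatives in the genome, so its count is uncertain where reads could not be assigned. The shugoshins, which protect cohesin at centromeres, had means of 657 in clone 2 and 539 in clone 1 for SGOL1 and 1317 in clone 2 and 1047 in clone 1 for SGOL2. CDC20, the APC/C activator that the checkpoint restrains, had a mean of 3550.5 in clone 2 and 2655 in clone 1. UBE2C, the ubiquitin-conjugating enzyme of the APC/C, had 1282 in clone 2 and 651 in clone 1, the largest gap between clones in the upward direction. FOXM1, a transcription factor of this program, had 2883 in clone 2 and 2246 in clone 1. TOP2A, which untangles DNA, and MKI67 (Ki-67, which coats mitotic chromosomes) had means of 13058 in clone 2 and 9624 in clone 1 for TOP2A and 14819 in clone 2 and 11959 in clone 1 for MKI67.

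**Figure D2:**
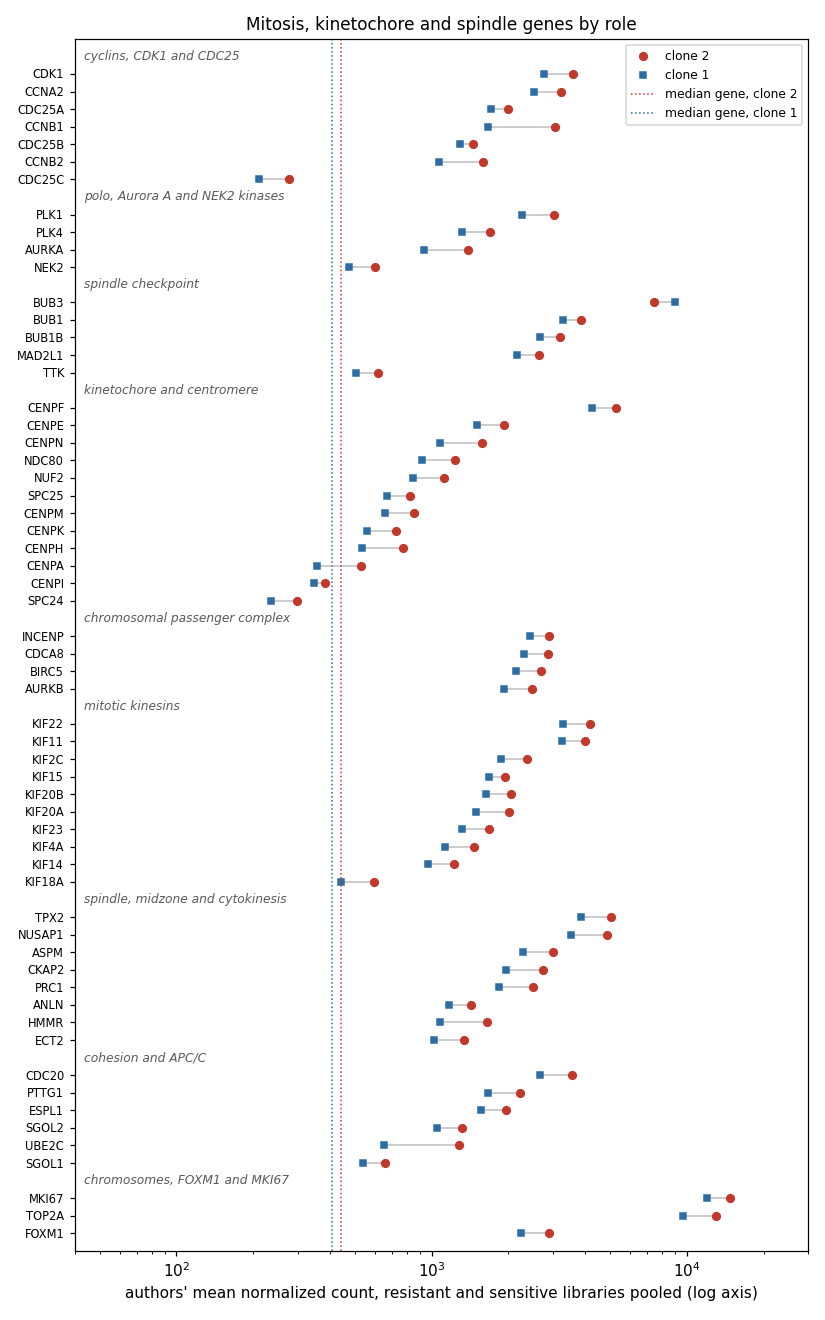
The authors' mean normalized count (x axis, log scale) of the 59 genes, grouped by role, for clone 2 (red circles) and clone 1 (blue squares), with resistant and sensitive libraries pooled. Dotted lines mark the median gene of each table (442 and 406). Clone 2 lies to the right of clone 1 for 58 genes, and BUB3 is the exception.

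Between the clones, most of these genes differed little once the tables were put on 1 scale. The median ratio of clone 2 over clone 1 over all 15582 shared genes was 1.29-fold (0.37 on the log2 scale), and every ratio below is centred on it. The centred log2 ratio of the 59 genes had a median of -0.01, and 56 of them (94.9%) lay within 0.25 of 0. Of the 14349 shared genes with a mean of at least 10 in either clone, 79.6% did so, and of the 9258 genes whose means fall within the range of these genes 91.2% did. No member passed a centred log2 ratio of 1 in either direction, where 2.31% of the 14349 genes did (1.34% above 1 and 0.976% under -1). Of the 9258 genes within the range of these genes, only 9 were above 1 and 9 under -1, so nothing is read from the absence of members there. Past 0.5 there were 3 of the 59 genes (5.08%), against 8.04% of the 14349 genes and 1.91% of those within the range of these genes. Across the 59 genes the log2 means of the clones had a Pearson correlation of 0.991 and a Spearman correlation of 0.987, which describes genes of the same libraries and has no test.

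UBE2C and CCNB1 were above the common scale and BUB3 below it. UBE2C, with the mean counts of 1282 and 651 given above, had a centred log2 ratio of 0.61 (clone 2 over clone 1), and CCNB1 had 0.51. BUB3 had -0.64. Above 0.5, 4.58% of the 14349 shared genes were found, and under -0.5, 3.46%. UBE2C and CCNB1 encode an APC/C enzyme and an APC/C substrate. Their nearest relatives here did not share the size of the ratio: CCNB2 had 0.21, PTTG1 0.04 and CDC20 0.05. The other genes at the high end were HMMR (0.24), CENPA (0.21) and CCNB2, with AURKA close behind (0.21). At the low end, after BUB3, were CENPI (-0.22), CDC25B (-0.21), KIF15 (-0.16) and CDC25A (-0.15). The 4 checkpoint genes other than BUB3 had -0.13 (BUB1), -0.12 (BUB1B), -0.09 (MAD2L1) and -0.07 (TTK), within the range of the kinetochore and centromere genes (-0.22 to 0.21). Without values per library no error can be set to these ratios. Each also mixes resistant and sensitive libraries, so a gap between clones may lie in either kind of culture.

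**Figure D3:**
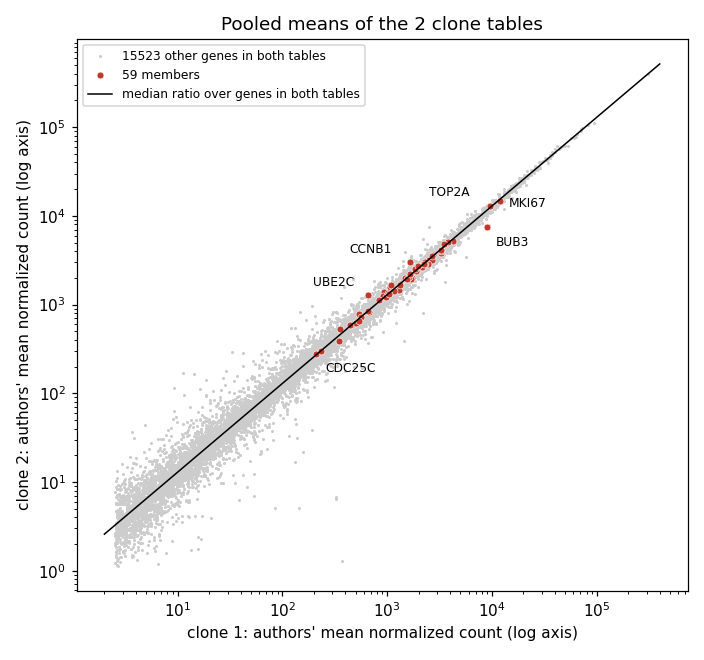
Mean normalized count of clone 2 (y axis) against clone 1 (x axis), both on log scales, for the 59 mitotic genes (red) and the other genes in both tables (grey). The line is the median ratio over the genes in both tables (1.29-fold). UBE2C and CCNB1 lie above it and BUB3 below it.

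**Figure D4:**
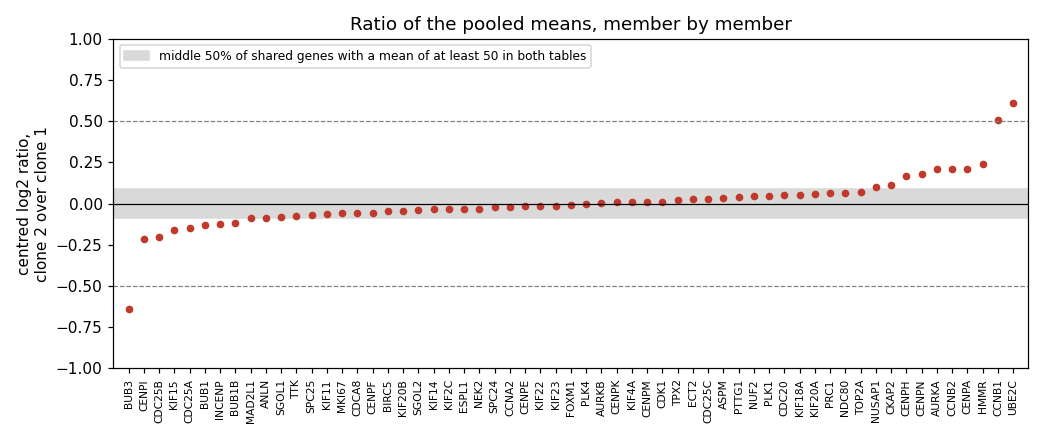
Centred log2 ratio of clone 2 over clone 1 (y axis) for each of the 59 genes, in order of the value. The grey band holds the middle 50% of shared genes with a mean of at least 50 in both tables, and dashed lines mark 0.5 and -0.5. BUB3 at -0.64 and CCNB1 and UBE2C at 0.51 and 0.61 are past the dashed lines.

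The rest of the mitotic apparatus, taken from lists outside the 59 genes, was described by the same ratio. No gene of these lists passed a centred log2 ratio of 0.5, where 3.76% of shared genes with a mean of at least 50 in both tables did and 1.91% of those within the range of the 59 genes, so that nothing is read from this count. All 15 APC/C genes listed were found, with a median mean of 1320.2 in clone 2 and 936 in clone 1 and centred log2 ratios from -0.13 to 0.14. UBE2C, at 0.61, was above all of these subunits of the complex it serves. Of 16 other kinetochore genes, 15 were found, at -0.16 to 0.18. The other was CENPX, which was searched under that symbol alone and may be listed under an older one. Cohesin and condensin genes, 13 of 13, had a median mean of 4322 in clone 2 and 3490.0 in clone 1, and ratios from -0.16 to 0.05. The 6 checkpoint adaptors had ratios from -0.07 to 0.07. Among 11 genes of the DREAM complex, its MuvB core and their partners, ratios ran from -0.12 to 0.30, and the highest was RBL2 (p130, the pocket protein of DREAM), with a mean of 2520.4 in clone 2 and 1584 in clone 1. MYBL2 (B-MYB) had a mean of 8047 in clone 2 and 6289 in clone 1, with a centred log2 ratio of -0.01.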

How the data were processed

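RNA of 12 RCH-ACV libraries was extracted with RNeasy columns and sequenced after a stranded mRNA preparation. Build hg19 and the tools DESeq2, bedtools (2.19.0), Picard (1.107) and BWA in versions 0.7.7-r441 and 0.6.2-r126 are listed, without an order, in the submitters' processing notes, as are FastQC 0.10.1 and SAMtools. How reads were counted, and on which annotation and strand, is not given in the sources used here, so overlapping and antisense genes are uncertain. Each of 2 deposited tables (1 per clone) gives a signal that the authors computed, the mean over 6 libraries of counts divided by size factors. Both tables also hold the authors' own comparison of resistant with sensitive cells (log2 fold change, standard error, test statistic, p-values and a call), which was not used, so that comparison was not made and the count model planned for values per library was not run. Groups came from the sample titles.

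The 59 genes were matched by symbol. Rows sharing a symbol (2 per table) were left out, and symbols stored as dates (22 in clone 2, 21 in clone 1) stayed as they were. Means were ranked within each table, divided by coding length (GENCODE 29, of the transcript with the longest coding sequence, 2 genes under a newer symbol), and compared as the log2 ratio of clone 2 over clone 1 minus the median over shared genes. Promoter windows came from RefSeq (GRCh38.p14). Chromosomal positions are those of that table. Protein features had been planned and were not analysed here. The members and lists were chosen with earlier results of these data known. Genes singled out were the 5 highest and 5 lowest members per kilobase of coding length and by centred ratio. Python 3.11.15 and pandas 2.3.3 were used. The centring was run on simulated data without noise, which checks the calculation alone and not how well it suits these tables.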

Additional observations from a re-analysis of the deposited data

How the results depend on the processing

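No paired analysis was possible because values per library were not used, and for the same reason no replicate was left out, so no error of any mean is known. Of 36 alternative values for 19 results, 26 stayed close and 10 moved. Of the 10 genes highest per kilobase of coding length, 4 remained in the top 10 without a length in each clone, and 5 in clone 2 and 6 in clone 1 with whole transcript length, a setting chosen after seeing the data. Without centring the median log2 ratio of the 59 genes was 0.36, and UBE2C, CCNB1 and BUB3 had 0.98, 0.88 and -0.27. The number of genes past the fold was 0 at a log2 ratio of 1 and 3 at 0.5. E2F-like letters were in 14 of the 50 genes in the whole window and 7 of the 50 within 100 bases before to 50 after the start. In that shorter stretch, 7.33% of all genes and 9.91% of protein-coding genes had them. Centring on summed means or genes with a mean of at least 50 left the number past 1 at 0. Against genes with a mean of at least 50, 48 genes lay above the median in clone 2 and 46 in clone 1. CDC25C, SPC24 and CENPI had the lowest means in both clones (210 to 384), and how far counting noise limits them was not tested.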
